A study of Mus musculus with 6 samples.

Results

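The genes described here encode the Polycomb repressive complexes, and they were followed in 2 fractions of mouse hematopoietic stem cells. The 10 genes are Suz12, Eed, Ezh2, Ezh1, Jarid2 and Phf19 of Polycomb repressive complex 2 (PRC2), and Ring1, Rnf2, Bmi1 and Cbx7 of Polycomb repressive complex 1 (PRC1). They were taken by name, through every probe set that the array annotation assigns to 1 of these symbols alone, which gave 29 of the 45037 probe sets. In the 10 genes 19 probe sets were bright enough to test, and each gene had at least 1 of them, out of 19613 tested probe sets for 9460 genes. The other 10 member probe sets read 1.86 to 4.29, where the arrays do not separate signal from background. Of these, 8 stayed under log2 4 on every array, and 2, one of Cbx7 and one of Rnf2, passed it on 1 array.

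The cells came from the bone marrow of male C57Bl/6 (CD45.1) mice aged 10 weeks. Lower-SP and Upper-SP cells were Lineage-, Sca-1+ and c-Kit+ and lay in the lower or the upper region of the side population, the cells that pump out a DNA-binding dye. Each fraction has 3 arrays made from separately sorted mouse pools, with more than 98% purity on re-analysis according to the labels, and the labeled RNA passed through 2 rounds of amplification by in vitro transcription. The labels also speak of separate days, without saying whether a replicate number marks a shared day. Neither fraction was treated, and no genotype other than the strain is given. The arrays of a fraction correlated at 0.952 to 0.991 over the tested probe sets, and arrays of different fractions at 0.911 to 0.938. All 10 stem cell markers that could be read, Procr, Hlf and Mecom among them, were above log2 4 on every array. Markers of T, NK and erythroid cells were at background except Nkg7, whereas 8 of 11 neutrophil markers were bright enough to test. Their mean level was 8.56, 8.12 and 5.45 for Lower-SP replicates 1 to 3, against 5.17, 5.38 and 4.43 for Upper-SP replicates 1 to 3, so 2 Lower-SP arrays stand apart by these genes, of which Elane is at background throughout. In Lower-SP 4 of the 8 tested neutrophil markers were called higher and 1 lower, beside 7.05% and 20.7% of all tested genes. Of the 4, Lcn2 and Chil3 were under log2 4 on every Upper-SP array and were tested through Lower-SP alone. The stem cell marker Kit was lower, and 1 of 2 tested monocyte markers was higher. Of 4 tested B and plasma cell markers 1 was lower. This was Igha, at 9.40, 8.99 and 4.70 in Lower-SP against 12.43, 12.60 and 11.31 in Upper-SP.

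Polycomb proteins keep genes silent through chromatin. PRC2 methylates a lysine in the tail of histone H3, and PRC1 attaches ubiquitin to histone H2A and compacts the chromatin. In the blood system both complexes are known for holding lineage genes and cell cycle inhibitors in check, and Bmi1 in particular for the maintenance of adult stem cells.

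Transcripts of 2 PRC2 genes, Jarid2 and Suz12, were higher in Lower-SP cells, and the PRC1 gene Bmi1 was lower. Of the 19 tested probe sets 5 were called higher, 2 of Jarid2 and 3 of Suz12, and 1 of Bmi1 was called lower, by limma with an adjusted p under 0.05. Over every tested probe set on the arrays, 10.7% were called higher and 17.5% lower. Read through the brightest probe set of each gene, which stands for the gene in what follows, 2 of 10 genes were higher and 1 was lower, beside 7.05% and 20.7% of all tested genes. The median difference of the 10 genes, Lower-SP minus Upper-SP, was 0.13, and that of all tested genes was -0.24. The 12 tested PRC2 probe sets included 11 with a positive difference, 5 of them of Suz12 and 2 of Jarid2, and the 7 tested PRC1 probe sets included 2. The median difference over all tested probe sets was -0.14. Probe sets of the same gene are not independent and most of these differences did not pass, so the counts do not set the complexes apart. Bulk arrays cannot tell fewer cells that carry a transcript from less of that transcript in each cell.

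**Figure D1:**
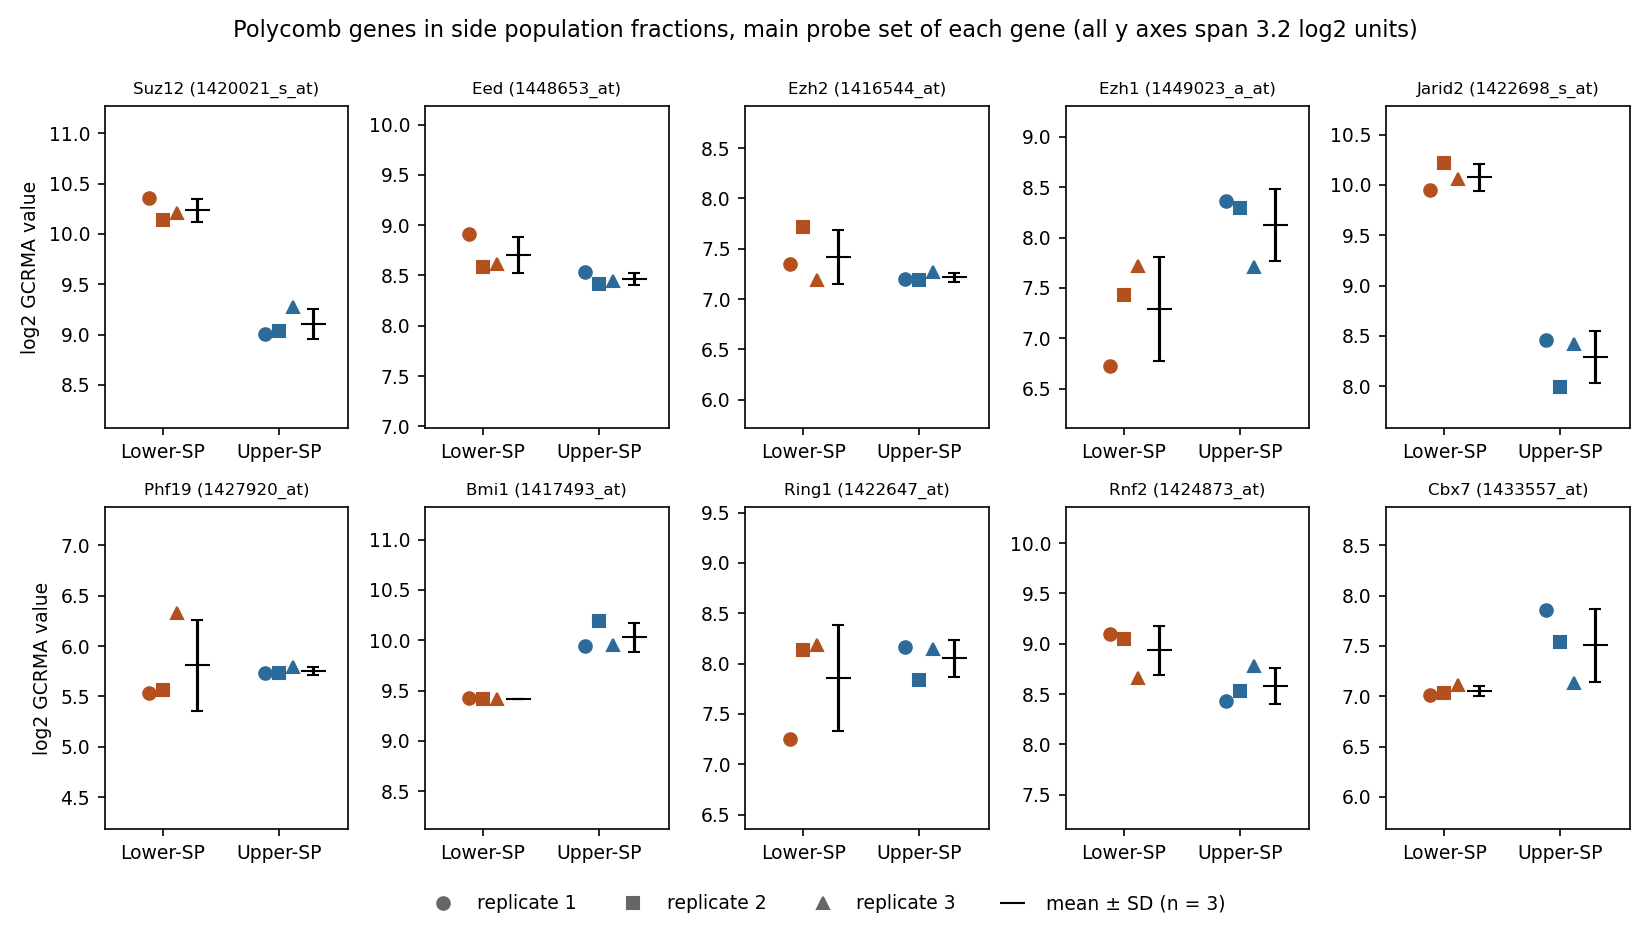
Log2 GCRMA value (y axis, every panel spanning the same range) of the brightest probe set of each of the 10 Polycomb genes on the 3 Lower-SP arrays (orange, left) and the 3 Upper-SP arrays (blue, right), with the mean and SD as black bars. Jarid2, Suz12 and Eed lie higher and Bmi1 and Cbx7 lower in Lower-SP without overlap, while Ezh1, Ezh2, Ring1, Rnf2 and Phf19 overlap. The differences of Eed and Cbx7 did not pass.

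The core of PRC2 consists of Suz12, Eed and one of the methyltransferases Ezh1 and Ezh2. Suz12 is the scaffold on which the catalytic module and the accessory proteins assemble. Its brightest probe set, 1420021_s_at, read 10.35, 10.14 and 10.21 on the Lower-SP arrays, against 9.01, 9.03 and 9.28 on the Upper-SP arrays. Every Lower-SP array lay above every Upper-SP array, by more than the spread within either fraction. The means were 10.23 ± 0.11 in Lower-SP and 9.11 ± 0.15 in Upper-SP (SD, n = 3 each), a difference of 1.13 (SE 0.15, 2.18-fold, limma adjusted p = 0.00345). The difference stayed called in every setting that tested the probe set, from 1.07 to 1.32, including 1.10 with Lower-SP replicates 1 and 2 left out, the arrays with the highest neutrophil marker means. S100a8, a neutrophil marker, still read 9.16 on Lower-SP replicate 3, against 7.62, 7.87 and 6.95 on the Upper-SP arrays.

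Other Suz12 probe sets gave differences of similar size at lower levels. Probe set 1427253_s_at read 8.05, 8.49 and 7.94 in Lower-SP and 6.80, 6.43 and 7.36 in Upper-SP. That is a difference of 1.30 (SE 0.29, adjusted p = 0.0154). Probe set 1452364_at, designed on the same sequence record and so no independent measurement, differed by 1.19 (SE 0.35, adjusted p = 0.0383). Both showed no overlap between the fractions. The call of 1427253_s_at was lost without Lower-SP replicate 2 (1.14) and when Upper-SP replicate 1 (1.27) or 2 (1.09) was left out, at adjusted p of 0.0569, 0.0724 and 0.0545. The call of 1452364_at was lost without any one of those arrays (0.93, 1.08 and 0.99) and without Lower-SP replicate 1 (1.25), at adjusted p of 0.0787 to 0.144. Both calls were also lost with no filter and with Lower-SP replicates 1 and 2 both left out (1.08 and 0.80). The remaining tested Suz12 probe sets were dim, near log2 5 and 4, and differed by 0.62 and 0.03, neither of which passed (adjusted p = 0.322 and 0.966), although the brighter passed without Lower-SP replicate 1 (1.13, adjusted p = 0.0435).

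The stretch of DNA around the start of Suz12 is shown because the gene was raised at several probe sets. It covers 250 bases before and 50 after the start annotated by RefSeq, at chr11:79992856-79993155 on the plus strand of GRCm38.p6, and the capitals mark an E2F motif and a CCAAT box.
Suz12: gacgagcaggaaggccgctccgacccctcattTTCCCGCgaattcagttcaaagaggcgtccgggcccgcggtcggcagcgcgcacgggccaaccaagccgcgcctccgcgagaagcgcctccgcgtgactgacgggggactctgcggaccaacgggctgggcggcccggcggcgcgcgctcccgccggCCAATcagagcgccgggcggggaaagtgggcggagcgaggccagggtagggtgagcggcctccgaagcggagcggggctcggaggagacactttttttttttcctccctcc
The E2F letters, TTCCCGC, begin 218 bases before the start, and either strand of 4.60% of 32851 windows of this length holds them. Among the members they were found for Suz12 and Phf19. The letters CCAAT, in 37.4% of the windows, do not overlap them. The window has 41 CpG dinucleotides, against a median of 7 over all windows, and the 11 windows of the 10 members had 17 to 41.

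Eed, which binds the methylated histone tail and stimulates the enzyme, read 8.91, 8.58 and 8.62 in Lower-SP and 8.53, 8.42 and 8.45 in Upper-SP. The Lower-SP values were all above the Upper-SP values, yet the difference of 0.24 (95% interval -0.16 to 0.63) did not pass (adjusted p = 0.325). Ezh2 is the methyltransferase of dividing cells and Ezh1 its paralog, known to act in resting cells. Ezh2 read 7.35, 7.71 and 7.19 in Lower-SP and 7.20, 7.19 and 7.27 in Upper-SP, so that the fractions overlapped. The difference of 0.20 had an interval of -0.29 to 0.69 (adjusted p = 0.506).

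Ezh1 had the lowest difference of the PRC2 probe sets, at 1449023_a_at. This probe set read 6.72, 7.43 and 7.72 in Lower-SP against 8.37, 8.29 and 7.71 in Upper-SP. Lower-SP replicate 3 and Upper-SP replicate 3 met at the same level, and the other arrays were apart. The difference was -0.83 (SE 0.31, interval -1.55 to -0.11) and did not pass after adjustment (adjusted p = 0.0816). It passed without Lower-SP replicate 3 (-1.05, adjusted p = 0.0361) and with array weights (-1.13, adjusted p = 0.00214), and was -0.40 with Lower-SP replicates 1 and 2 left out (adjusted p = 0.456). A second tested Ezh1 probe set lay near background at 4.38 ± 0.07 in Lower-SP and 4.20 ± 0.12 in Upper-SP, a difference of 0.18 that did not pass.

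The balance between the paralogs was read within each array, as the log2 value of Ezh1 minus that of Ezh2, which a shift common to all probe sets of an array cannot move. It was -0.63, -0.29 and 0.53 in Lower-SP and 1.17, 1.10 and 0.45 in Upper-SP. The fractions overlapped through replicate 3 of each. The means differed by -1.03 (two-sided exact permutation p = 0.2, where 3 against 3 arrays cannot go below 0.1). Averaged over all tested probe sets of each gene, the same contrast was -0.53.

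Jarid2 belongs to the accessory proteins of PRC2. It helps to recruit the complex and marks, with Aebp2, one of its forms. At probe set 1422698_s_at it read 9.95, 10.22 and 10.06 on the Lower-SP arrays, against 8.46, 7.99 and 8.42 on the Upper-SP arrays. The gap between the fractions was larger than the spread within either of them. The means were 10.08 ± 0.13 in Lower-SP and 8.29 ± 0.26 in Upper-SP, a difference of 1.78 (SE 0.18, 3.45-fold, adjusted p = 0.00178), the highest of the 19. The call held in each of the 17 settings that tested this probe set, at 1.63 to 1.96, including 1.77 with Lower-SP replicates 1 and 2 left out.

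The second Jarid2 probe set, 1422697_s_at, gave a smaller difference. It read 9.36, 9.46 and 9.71 in Lower-SP and 8.92, 9.10 and 8.50 in Upper-SP, again without overlap, and differed by 0.67 (SE 0.20, 1.59-fold, adjusted p = 0.0408). This call was lost when any single array was left out, with values of 0.50 to 0.80 and adjusted p of 0.0558 to 0.113. It was also lost with no filter, without the variance trend and with Lower-SP replicates 1 and 2 both left out (0.87). Both probe sets are annotated to a RefSeq mRNA, a class in which 3.61% of 2687 tested probe sets were called higher and 26.4% lower. The third Jarid2 probe set, from the same record, stayed at background at 2.56 ± 0.03 in Lower-SP and 2.51 ± 0.04 in Upper-SP. The name ending _s_at marks sets whose probes match more than one transcript, so the probe sets may read different mixtures of transcripts, which was not tested. The called Suz12 probe sets 1420021_s_at and 1427253_s_at carry the same ending, and the same limit holds for them.

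RefSeq lists a pair of starts for Jarid2, and both windows are shown as the gene differed most. They lie at chr13:44730524-44730823 and chr13:44731021-44731320 on the plus strand of GRCm38.p6, and the capitals mark CCAAT boxes (ATTGG where read on the other strand) and a TATA motif.
Jarid2 first start: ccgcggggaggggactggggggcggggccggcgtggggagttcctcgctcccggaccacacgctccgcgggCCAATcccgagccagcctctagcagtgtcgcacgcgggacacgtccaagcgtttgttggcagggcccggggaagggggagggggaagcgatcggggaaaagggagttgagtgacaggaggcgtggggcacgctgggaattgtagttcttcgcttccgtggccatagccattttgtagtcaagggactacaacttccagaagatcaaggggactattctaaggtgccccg
Jarid2 second start: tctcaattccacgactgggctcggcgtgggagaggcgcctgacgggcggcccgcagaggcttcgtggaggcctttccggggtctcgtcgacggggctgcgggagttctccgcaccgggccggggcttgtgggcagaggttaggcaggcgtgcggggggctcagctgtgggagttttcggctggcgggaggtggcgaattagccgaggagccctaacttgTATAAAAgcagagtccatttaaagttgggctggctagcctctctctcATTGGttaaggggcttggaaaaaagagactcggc
The letters TATAAAA begin 31 bases before the second start. They occur on either strand of 5.48% of all windows and in no other window of the members. The windows hold 24 and 23 CpG dinucleotides. Neither holds TTCCCGC, and neither an ETS motif (CCGGAAGT, in 3.89% of all windows) nor a CRE motif (TGACGTCA, in 1.79%) was found in any of the 11 windows.

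Phf19, a Polycomb-like protein of the other main form of PRC2, read 5.53, 5.56 and 6.33 in Lower-SP and 5.73, 5.74 and 5.80 in Upper-SP. Only Lower-SP replicate 3 stood out, and the difference of 0.06 (interval -0.58 to 0.69) did not pass. Without that array it was -0.21, and with Lower-SP replicates 1 and 2 left out it was 0.58, neither of which passed.

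**Figure D2:**
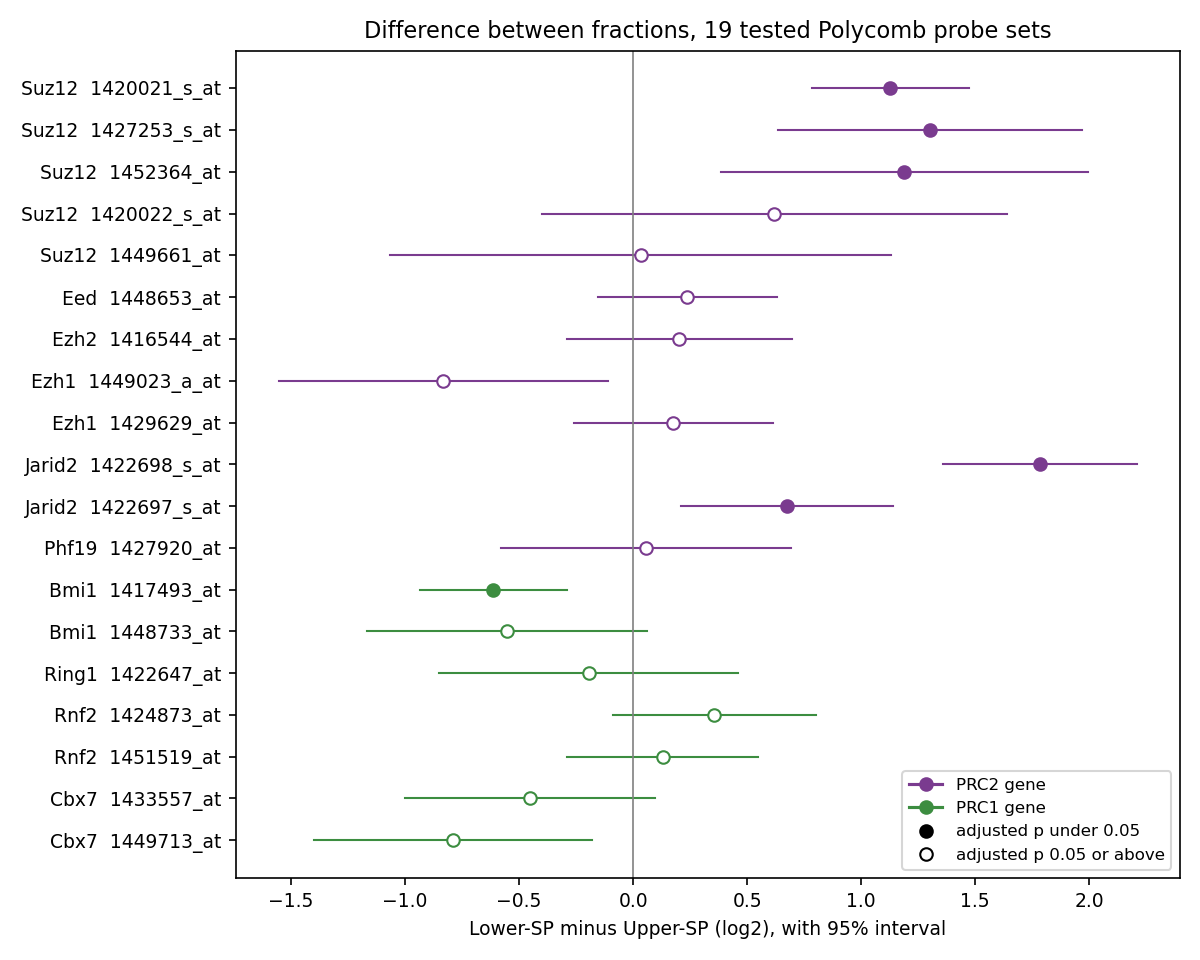
Difference of Lower-SP minus Upper-SP (x axis, log2) with its 95% interval for the 19 tested probe sets of the 10 genes, PRC2 in purple and PRC1 in green, filled where the limma adjusted p was under 0.05. The filled points are 5 probe sets of Suz12 and Jarid2 to the right of 0 and 1 of Bmi1 to the left.

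In PRC1, Ring1 and Rnf2 are the alternative ubiquitin ligases, which pair with a Pcgf protein such as Bmi1. Bmi1, at 1417493_at, read 9.42, 9.41 and 9.41 on the Lower-SP arrays, against 9.94, 10.19 and 9.96 on the Upper-SP arrays. The Lower-SP arrays were nearly equal and all lay under the Upper-SP arrays. The means were 9.42 ± 0.004 in Lower-SP and 10.03 ± 0.14 in Upper-SP, a difference of -0.61 (SE 0.14, 1.53-fold lower, adjusted p = 0.0171). The call was lost with cyclic loess (-0.42, adjusted p = 0.0548) and without Lower-SP replicate 2 (-0.61, adjusted p = 0.0555), Upper-SP replicate 1 (-0.66, adjusted p = 0.0638) or Upper-SP replicate 2 (-0.53, adjusted p = 0.0705). It was also lost with Lower-SP replicates 1 and 2 both left out (-0.62).

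The second Bmi1 probe set, made from the same sequence record, read 7.33, 7.004 and 6.70 in Lower-SP and 7.22, 7.56 and 7.92 in Upper-SP. Its difference was nearly the same, -0.55, but the fractions overlapped and it did not pass (SE 0.27, adjusted p = 0.155). The window around the start of Bmi1, at chr2:18676768-18677067 on the plus strand of GRCm38.p6, is shown beside those of the raised genes and holds none of the 5 motifs searched.
Bmi1: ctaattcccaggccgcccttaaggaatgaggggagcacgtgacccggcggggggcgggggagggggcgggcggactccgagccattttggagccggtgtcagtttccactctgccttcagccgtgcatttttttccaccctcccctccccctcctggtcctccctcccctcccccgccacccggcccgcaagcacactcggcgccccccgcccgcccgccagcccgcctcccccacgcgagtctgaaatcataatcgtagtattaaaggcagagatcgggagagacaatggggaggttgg

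Ring1 read 7.25, 8.14 and 8.18 in Lower-SP and 8.17, 7.84 and 8.15 in Upper-SP, with Lower-SP replicate 1 alone below the rest. Its difference of -0.20 (interval -0.85 to 0.46) did not pass, and without that array it was 0.11. Rnf2, the ligase with the larger share of the activity in embryonic stem cells, read 9.10, 9.05 and 8.66 in Lower-SP and 8.44, 8.53 and 8.78 in Upper-SP. The difference of 0.36 (interval -0.09 to 0.80, adjusted p = 0.20) did not pass as reported and passed with array weights (0.57, adjusted p = 0.0062). A second Rnf2 probe set differed by 0.13 and did not pass. The within-array contrast of Ring1 minus Rnf2 averaged -1.08 ± 0.70 in Lower-SP and -0.53 ± 0.23 in Upper-SP (n = 3 each), a difference of -0.55 (exact permutation p = 0.3), and without Lower-SP replicate 1 it was -0.17.

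Cbx7, the chromodomain subunit that reads histone methylation, had negative differences at both tested probe sets, and neither passed. It read 7.01, 7.04 and 7.11 in Lower-SP and 7.85, 7.54 and 7.13 in Upper-SP at 1433557_at, and 5.19, 5.18 and 4.96 in Lower-SP and 6.16, 6.10 and 5.44 in Upper-SP at 1449713_at. Neither probe set overlapped between the fractions, and in both Upper-SP replicate 3 came closest to the Lower-SP arrays. The differences were -0.45 (SE 0.24, adjusted p = 0.187) and -0.79 (SE 0.26, adjusted p = 0.0584). Both passed with array weights (-0.76, adjusted p = 0.00741, and -0.96, adjusted p = 0.00227). The second also passed without Upper-SP replicate 3 (-1.02, adjusted p = 0.0193) and without the variance trend (adjusted p = 0.0476), and the first was -0.28 without Upper-SP replicate 1.

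Over the 19 member probe sets, 6 lay higher and 3 lower in Lower-SP with no overlap between the arrays, beside 18.2% and 27.9% of all tested probe sets. Over the 10 genes this held for 3 and 2, beside 13.4% and 32.3% of all tested genes. The number of called member probe sets was 2, one each of Jarid2 and Suz12, without Lower-SP replicate 2, Upper-SP replicate 1 or Upper-SP replicate 2, and also in the absence of both Lower-SP replicates 1 and 2. The proliferation genes had mean levels of 7.62, 7.30 and 6.94 in Lower-SP and of 7.10, 7.02 and 6.998 in Upper-SP, with 1 of 12 tested members called higher and 0 lower. Lower-SP replicate 3 had the lowest average of the Lower-SP arrays for both the neutrophil and the proliferation markers, but still read 9.16 for S100a8. On this array Jarid2 at 1422698_s_at read 10.06 and Suz12 at 1420021_s_at read 10.21, within the range of the other Lower-SP arrays. Whether neutrophils, B and plasma cells or dividing cells contribute to these differences was not tested.

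**Figure D3:**
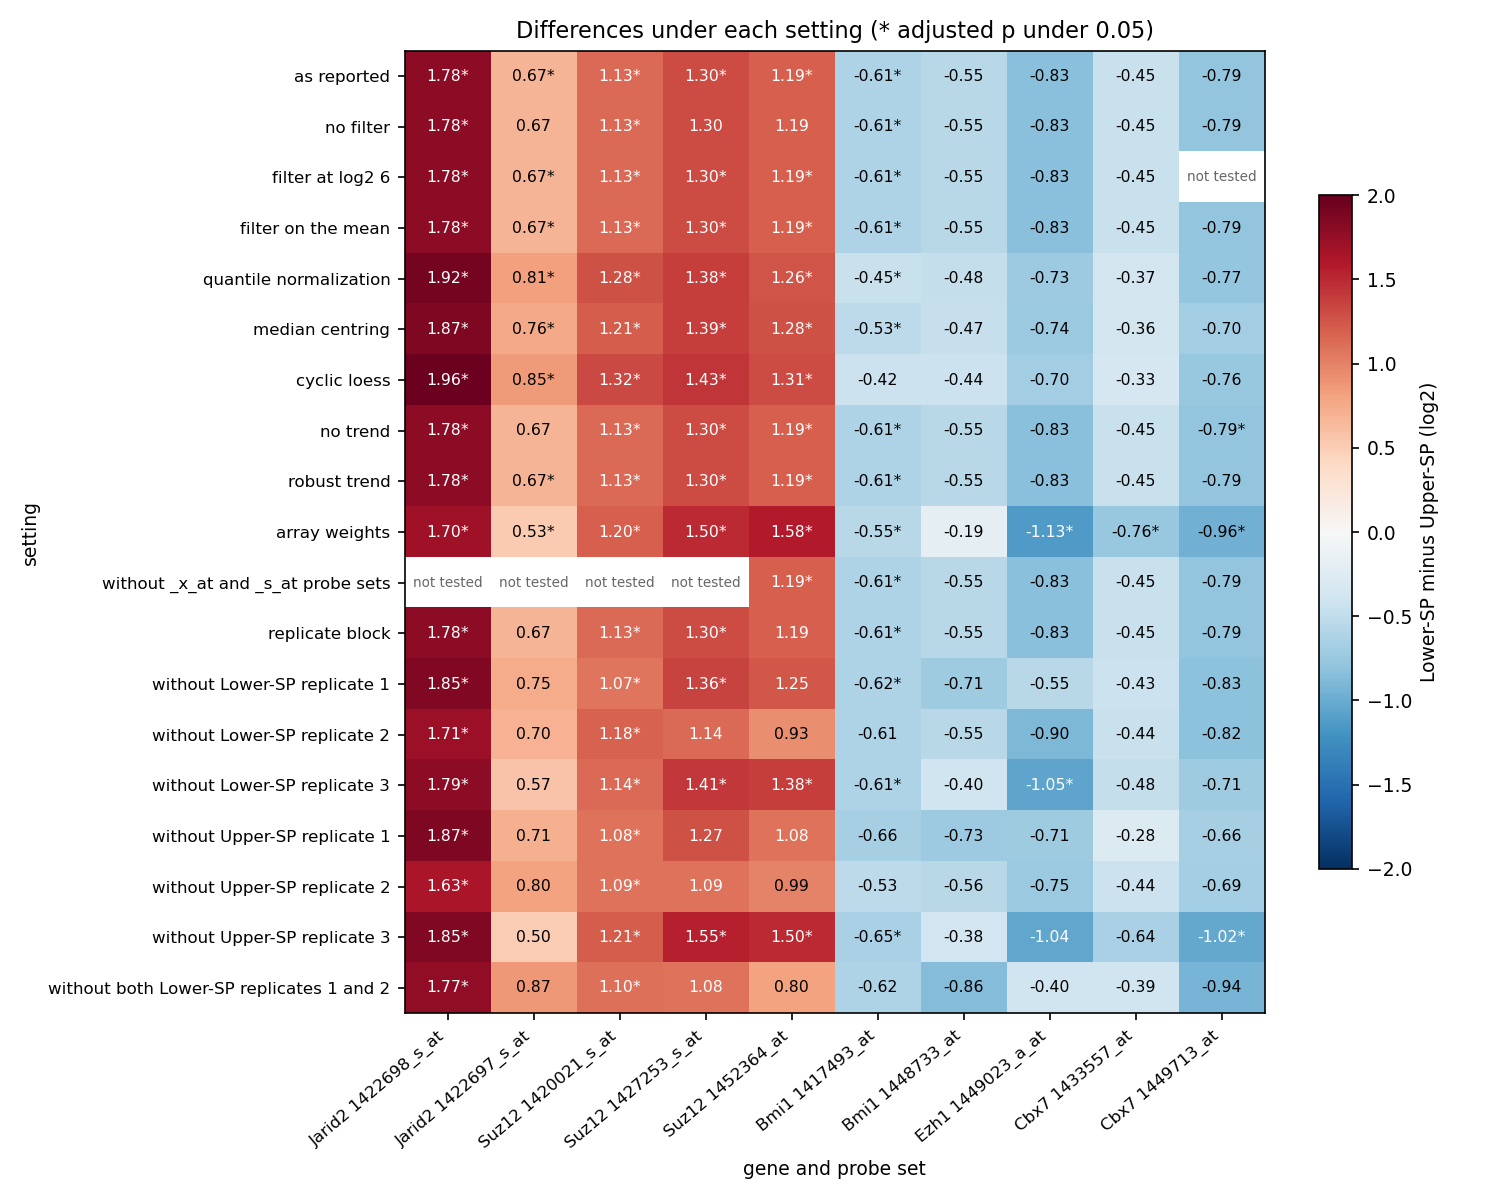
Lower-SP minus Upper-SP differences (log2, colour and number) of 10 of the 19 tested member probe sets (columns: all of Jarid2, Bmi1 and Cbx7, the called ones of Suz12 and the brightest of Ezh1) under the reported setting and each alternative (rows), with an asterisk where the adjusted p was under 0.05. The columns of Jarid2 1422698_s_at and Suz12 1420021_s_at carry an asterisk in each row in which they were tested, and none of these 10 columns changes sign, whereas Ezh2, Ring1, Phf19 and Suz12 1449661_at, which are not drawn and were not called, did so in 1 to 6 alternatives.

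Beyond the 10 genes, 25 of 36 other Polycomb genes could be tested, of which 5 were higher and 3 lower in Lower-SP, beside 7.05% and 20.7% of all tested genes. The median difference was 0.10, against -0.24 over all tested genes. The raised genes included Scmh1, a sterile alpha motif protein of PRC1, with a difference of 1.79 (SE 0.27, adjusted p = 0.00476). It read 8.70, 8.43 and 8.97 in Lower-SP and 7.11, 7.20 and 6.41 in Upper-SP, but of its other tested probe sets one was at 1.68 and one at -0.48, neither passing. Bcorl1, a corepressor of variant PRC1, rose by 1.31. Yaf2, which binds Ring proteins in variant PRC1, rose by 0.60 and at its second probe set by 0.78. Kdm2b, which brings variant PRC1 to CpG islands, rose by 0.47 (-0.08 at another probe set, not passing), and the histone-binding Rbbp7 by 0.31 (-0.25 at another probe set, not passing). Phc3, a polyhomeotic subunit of PRC1, fell by 1.15 in Lower-SP, where it read 8.01, 8.51 and 8.53 against 9.59, 9.44 and 9.46 in Upper-SP, while its dimmer probe set differed by -0.26 and did not pass (adjusted p = 0.657). E2f6, a repressor that recruits variant PRC1, fell by 0.93 (-0.42 at another probe set, not passing), and Phf1, a Polycomb-like relative of Phf19, fell by 0.87. Scmh1, Bcorl1 and Phc3 stayed called in all 18 alternatives. The other calls were less stable: Yaf2 held in 16 of 18 alternatives, Kdm2b in 13 of 17, Phf1 in 12 of 18, E2f6 in 11 of 18 and Rbbp7 in 8 of 17. The count of called genes was 3 without Upper-SP replicate 1, 5 after leaving out either Lower-SP replicate 1 or Lower-SP replicate 2, and 4 with both Lower-SP arrays left out.

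Other listed subunits, picked out after their values were seen, did not pass. Aebp2, which shares the PRC2 form of Jarid2, differed by 0.14 (interval -0.35 to 0.62), and Mtf2, a Polycomb-like protein, by 0.19 (interval -0.11 to 0.49). Rbbp4, the paralog of Rbbp7 in PRC2, differed by -0.17 (interval -0.35 to 0.004). Among the Pcgf relatives of Bmi1, Pcgf5 differed by -0.06, Pcgf3 by -0.25 and Pcgf6 by -0.92 (adjusted p = 0.0683), and none passed.

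Of 25 listed genes that oppose Polycomb, 22 were tested, with 3 higher and 1 lower in Lower-SP, beside 7.05% and 20.7% of all tested genes. The median difference was -0.23, close to the -0.24 of all tested genes. Kdm6a, an X-linked demethylase that removes the PRC2 mark, read 8.57, 8.10 and 8.97 in Lower-SP and 7.002, 6.70 and 7.30 in Upper-SP, a difference of 1.54 (SE 0.28, adjusted p = 0.00788). It was called in all 18 alternatives, and of its dimmer tested probe sets 2 were called higher and 1, at -0.35, was not called. Mysm1, a histone H2A deubiquitinase, rose by 0.98, with 0.09 at another probe set. Asxl2, a partner of the deubiquitinase Bap1, rose by 0.80, with 0.69 at another probe set that did not pass (limma adjusted p = 0.0539). Bap1 itself fell by 0.44 and at its dimmer probe set, also called lower, by 1.46 (limma adjusted p = 0.0134). The Bap1 call at the brighter probe set held in 4 of 18 alternatives and the Asxl2 call in 9 of 18. Both were lost when any single array was left out, and the Bap1 call also with each other scaling. The count of called genes in this list, 4 as reported, was 1 without Upper-SP replicate 1. It was 2 without Upper-SP replicate 2, Lower-SP replicate 1 or Lower-SP replicate 2. With Lower-SP replicates 1 and 2 both left out, the differences were 1.965 for Kdm6a, 0.79 for Mysm1, 0.87 for Asxl2 and -0.415 for Bap1.

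**Figure D4:**
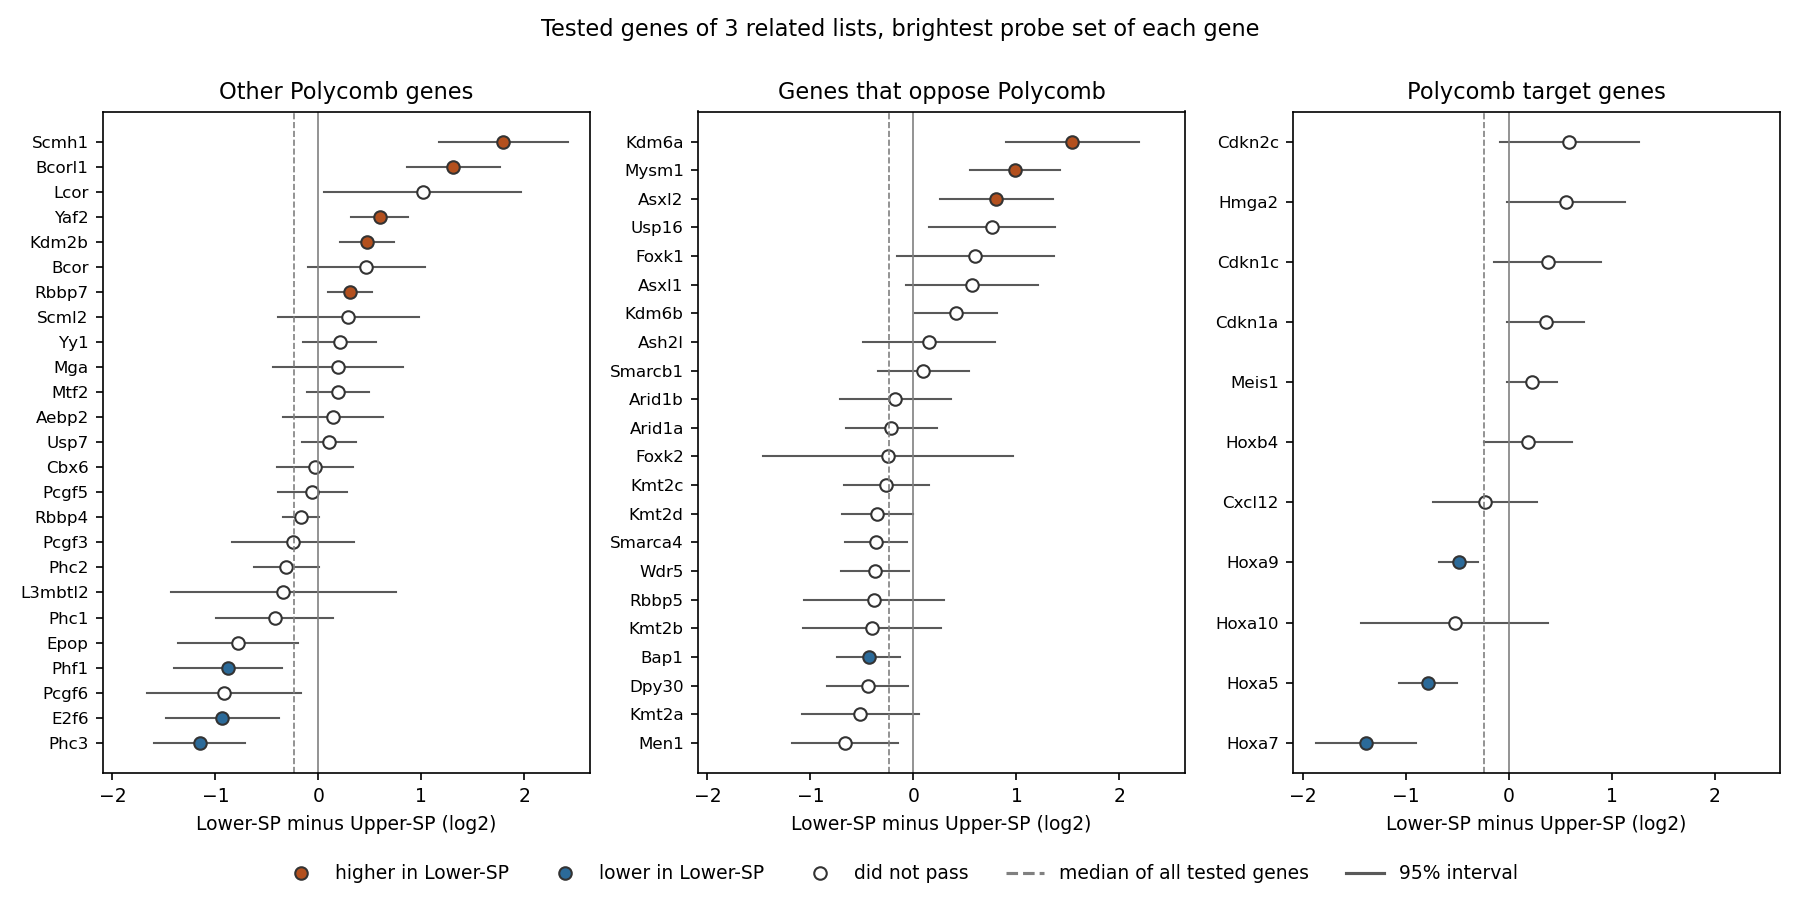
Lower-SP minus Upper-SP differences (x axis, log2) with 95% intervals for the tested genes of the other Polycomb genes, the genes that oppose Polycomb and the Polycomb target genes, filled orange where called higher and blue where called lower. The dashed line is the median of all tested genes, -0.24, and most genes of the first 2 panels spread around it and 0 with open symbols.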

How the data were processed

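Expression was measured on Affymetrix mouse arrays in 3 Lower-SP and 3 Upper-SP samples. The deposited values are log2 expression per probe set, made by the authors with GCOS 1.0 and GCRMA per the submitters' processing notes, which state no parameters. GCRMA models background from probe sequence, normalizes the arrays and summarizes each set's probes. This could move the balance of directions, so other scalings were tried. The sources used here name no genome build. With 64 control probe sets removed, 34945 of 45037 probe sets carried 1 symbol in the array annotation, and all 10 members matched RefSeq gene records. Promoter windows are those of RefSeq (GRCm38.p6).

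Probe sets above log2 4 on at least 3 of 6 arrays were compared with limma 3.58.1 in R 4.3.3 (two-sided moderated test from lmFit and trended eBayes, 4 residual and 3.80 prior degrees of freedom), with no replicate block. The Benjamini-Hochberg adjustment covered the 19613 tested probe sets (threshold 0.05), and intervals are unadjusted 95% intervals. The number of arrays limits the precision. Single contrasts used exact permutation over 20 regroupings (scipy 1.17.1). The fit was tested on simulated data. Every member probe set is reported. From each further list (other Polycomb genes, genes opposing Polycomb, known targets) up to 8 called genes are named, largest difference first, and genes named beside them as partners of members were chosen after their values were seen. Marker lists covered stem, neutrophil, B and plasma, T and NK, erythroid, and monocyte cells and proliferation. Members and lists were chosen with earlier results of these data known. Alternatives were 3 filters, 3 scalings, 2 variance models, array weights, _x_at and _s_at probe sets left out, a replicate block, each array left out, and Lower-SP replicates 1 and 2 left out together.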

Additional observations from a re-analysis of the deposited data

How the results depend on the processing

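Across 18 alternatives the 19 member probe sets gave 332 values. In 297 the call was unchanged in direction or absence, in 27 a call was lost, in 8 a call was gained and in 0 a called difference changed sign, while the uncalled differences of Ezh2, Ring1, Phf19 and Suz12 1449661_at turned sign in 1 to 6 alternatives each. Where a call was lost, the cause was not tested beyond what each setting changes. The count of called member probe sets, 6 as reported, was 3 with no filter, where more probe sets enter the adjustment, and 10 with array weights (6 higher, 4 lower). It was 2 without _x_at and _s_at probe sets, which removes both bright Jarid2 probe sets and the called Suz12 probe sets 1420021_s_at and 1427253_s_at. With one array left out it ranged from 2 to 6. For other Polycomb genes the count, 8 as reported, was 5 with the replicate block and 4 with Lower-SP replicates 1 and 2 left out, and ranged from 3 to 9 with one array left out. A lone Lower-SP array is assumed to vary like the others.

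The numbers were not taken as pairs, because the labels do not say that a replicate number marks a shared day. Same-numbered arrays did not deviate together (r = -0.0513, -0.0294 and -0.0233 over 19613 probe sets). With the replicate block 4 member probe sets were called, and the calls of Jarid2 1422697_s_at (adjusted p = 0.0898) and Suz12 1452364_at (0.0866) were lost. In the block the differences of Ezh1 minus Ezh2 (-1.03) and Ring1 minus Rnf2 (-0.55) had a sign-flip p of 0.5 each, where 0.25 is the smallest possible.

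Scaling moved the median difference of all tested genes from -0.24 to -0.15 with quantile normalization and with centring, and to -0.12 with cyclic loess. The share of called probe sets that were higher moved from 37.9% to 46.9%, 45.7% and 51.5%. The list of opponents had 5 called with cyclic loess, all higher, 14 with array weights and 2 with no filter, and the target list 5 with cyclic loess (2 higher, 3 lower). Under log2 4 the arrays give no order of levels.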

Other observations

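Of 24 listed genes that Polycomb is known to silence 11 could be tested, as could 9460 of the 18193 annotated genes. The 13 other targets, among them the cell cycle inhibitors Cdkn2a and Cdkn2b, the B cell factors Pax5 and Ebf1 and the endoderm factors Gata4, Gata6 and Sox17, were not above log2 4 on 3 arrays. Of the 11, 0 were higher and 3, all of the Hox A cluster, were lower in Lower-SP by limma, beside 7.05% and 20.7% of all tested genes. The median difference was 0.19, against -0.24 over all tested genes. Hoxa7 read 6.60, 6.58 and 6.73 in Lower-SP and 8.23, 8.09 and 7.74 in Upper-SP, a difference of -1.39 (SE 0.21, adjusted p = 0.00496). Hoxa5 fell by 0.78, with 0.06 at another probe set, and Hoxa9, a factor of stem cell self-renewal, fell by 0.48. Hoxa7 was called in all 18 alternatives, and the count was 2 with Lower-SP replicates 1 and 2 left out (1 higher, 1 lower). The inhibitors Cdkn1a (0.36), Cdkn1c (0.38) and Cdkn2c (0.59) did not pass.

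The genes whose brightest probe set moved most like Jarid2 1422698_s_at over the 6 arrays, each centred on its own mean, were Rell1 (root mean square distance 0.128), Rasa2 (0.137) and Diaph1 (0.139), out of 9459 genes. Those most like Bmi1 1417493_at were Foxn3 (0.0512), Abhd4 (0.0647) and Pnisr (0.0682).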
